A study of Homo sapiens with 3 samples.

Results

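The genes described here encode the enzymes that make cholesterol and fatty acids, together with the proteins that set their transcription. They are 28 genes of the 60504 in the deposited table, listed by symbol in 3 roles. These are 18 enzymes of the sterol pathway in the order of their reactions, 5 regulators and 5 lipogenic enzymes. STARD4, a cholesterol carrier that does not itself set transcription, is counted among the regulators. All 28 symbols matched a row. The genes were chosen by their FPKM ratios of the clones to the control, as seen in earlier results from the same libraries, so the ratios below describe these libraries and carry no test. RNA was sequenced from DLD1 cells, an established epithelial line from a colorectal cancer. The control was 1 library of wild type DLD1 cells, and BEX2-/- DLD1 cells, in which the X-linked gene BEX2 had been disrupted with CRISPR/Cas9, gave 2 libraries, DLD1 KO1 (clone 1) and DLD1 KO2 (clone 2). The labels give no treatment, and how the clones were isolated, beyond a screen by sequencing, is not given in the sources used here. Those sources do not state whether DLD1 KO1 and DLD1 KO2 are separate clones or 2 libraries of 1 line. Clone serves here only as a name for each.

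Cells assemble cholesterol from acetyl-CoA through mevalonate, the isoprenoids and squalene, and fatty acids from the same acetyl-CoA through malonyl-CoA. Both routes are governed by the SREBP transcription factors, encoded by SREBF1 and SREBF2, which are made as membrane proteins of the endoplasmic reticulum. When sterols are scarce, SCAP escorts them to the Golgi apparatus for cleavage, and when sterols are plentiful INSIG1 holds the complex back. The released factors bind sterol response elements in promoters, typically beside sites for NF-Y and SP1. Dividing cells draw on both routes for new membrane.

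Promoter windows of 300 bases, from 250 bases before to 50 bases after an annotated start, were taken from RefSeq on GRCh38.p14, and 24 of the 28 genes had at least 1 window, 32 in all. ACAT2, FDFT1, SQLE and FASN had none. The windows of 4 genes are printed 5′ to 3′ on the strand of the gene. SREBF2 (chr22:41832855-41833154, plus strand) is shown because it alone held the searched sterol response element, and HMGCS1 (chr5:43313363-43313662, minus strand), INSIG1 (chr7:155297628-155297927, plus strand) and MSMO1 (chr4:165327419-165327718, plus strand) because their mean ratios to the control were the highest among the genes with a window. HMGCS1 has 2 windows, of which the more upstream is shown. Capitals mark the sterol response element or an NF-Y box, and the element is the run of 9 capitals in SREBF2.
SREBF2: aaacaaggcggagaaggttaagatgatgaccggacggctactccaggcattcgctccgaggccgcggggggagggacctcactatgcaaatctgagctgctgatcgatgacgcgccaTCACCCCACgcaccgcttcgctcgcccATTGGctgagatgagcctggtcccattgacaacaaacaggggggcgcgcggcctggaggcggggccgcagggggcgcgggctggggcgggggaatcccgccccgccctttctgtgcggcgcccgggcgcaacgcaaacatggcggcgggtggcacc
HMGCS1: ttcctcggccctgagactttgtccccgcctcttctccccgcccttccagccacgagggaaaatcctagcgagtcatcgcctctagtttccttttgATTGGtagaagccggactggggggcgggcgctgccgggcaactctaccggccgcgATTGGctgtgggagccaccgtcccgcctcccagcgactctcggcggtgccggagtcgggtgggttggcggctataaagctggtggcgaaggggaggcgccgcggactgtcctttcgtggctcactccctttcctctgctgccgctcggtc
INSIG1: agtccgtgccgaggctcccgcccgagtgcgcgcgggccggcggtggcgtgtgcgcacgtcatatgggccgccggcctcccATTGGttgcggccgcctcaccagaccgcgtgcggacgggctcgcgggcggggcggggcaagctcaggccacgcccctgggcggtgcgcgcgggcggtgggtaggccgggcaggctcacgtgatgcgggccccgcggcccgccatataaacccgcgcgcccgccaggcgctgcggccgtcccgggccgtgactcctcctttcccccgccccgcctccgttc
MSMO1: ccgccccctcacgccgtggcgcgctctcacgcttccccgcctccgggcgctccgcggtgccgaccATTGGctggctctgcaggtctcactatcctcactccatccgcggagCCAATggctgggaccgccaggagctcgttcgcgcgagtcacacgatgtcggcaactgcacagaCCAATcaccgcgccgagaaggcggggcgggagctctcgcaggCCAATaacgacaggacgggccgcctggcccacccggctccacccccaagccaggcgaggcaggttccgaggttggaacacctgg

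The sterol response element was searched as TCACNCCAC, the NF-Y box as CCAAT, the SP1 box as GGGCGG and the E-box, which SREBP proteins can also bind, as CACGTG, each on both strands. The element was found in 1 of 32 windows (3.12%), that of SREBF2, where it began 133 bases before the annotated start. It was in 1.13% of all 35116 windows and in 1.04% of the 11983 windows of expressed protein-coding genes. An NF-Y box was in 23 of the 32 windows (71.9%), which belonged to 19 genes, against 34.6% of all windows and 35.2% of those of expressed protein-coding genes. The printed window of MSMO1 held 4 NF-Y boxes, that of HMGCS1 2, and those of SREBF2 and INSIG1 1 each. An SP1 box was in 29 windows (90.6%), against 45% of all windows and 68.1% of those of expressed protein-coding genes. An E-box was in 5 windows (15.6%), of LSS, SC5D, INSIG1 and SCAP, against 7.26% of all windows and 9.72% of those of expressed protein-coding genes. Several windows of a gene overlap, and a match in these letters is a description of the window, not of binding. Only exact matches were counted, so a window without a match can still hold a site that differs by a base.

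The deposited values were FPKM, which scale the fragments counted for a gene to its exon length and to the library's total. The low values moved in steps of whole reads, which gave depths of 47458834 reads for the control, 35594003 for clone 1 and 47722379 for clone 2. BEX2 was listed at 0 in all 3 libraries, so its mRNA does not check the genotype labels. If every read of the gene was counted, 0 at these depths allows a level of up to 0.0535 to 0.0717 FPKM (3 reads). The paper describes BEX2 protein as relatively high in DLD1 among colorectal lines, and checked the knockout by western blot. All 8 epithelial markers reached 1 FPKM in at least 1 library, and EPCAM lay between 220 and 282 FPKM. VIL1 alone among the 8 varied widely, with 3.61 FPKM in the control, 13.2 in clone 1 and 0.221 in clone 2, and its part in the values below was not tested. The 7 fibroblast markers summed to between 0.129 and 0.634 FPKM and the 4 endothelial markers to between 0.0649 and 0.0784. The 6 leukocyte markers summed to between 0.821 and 1.06 FPKM, and PTPRC was at 0 in every library. Over the 11675 genes with a mean of at least 1 FPKM, the log2 ratios of FPKM + 1 to the control had a median of 0.04 in clone 1 and -0.01 in clone 2.

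The regulators and the lipogenic enzymes were higher in both BEX2-/- clones than in the control, by modest amounts, whereas 14 of 17 sterol pathway enzymes were higher in clone 1 and 9 of 17 in clone 2. The summed level of the 28 genes was 468 FPKM in the control, 607 in clone 1 and 525 in clone 2. After CYP51A1 was set aside for its low value, 24 of 27 genes were above the control in clone 1, where 56.2% of all genes were, and 19 of 27 were above it in clone 2, where 48.4% of all genes were. By the mean log2 ratio of the clones, HMGCS1, INSIG1 and MSMO1 stood furthest above the control. PMVK and EBP were below it in both clones, so that the control was the highest library for 2 of 27 genes (27.7% of all genes).

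For the 27 genes the ratios had a median of 0.35 in clone 1 and 0.12 in clone 2 (log2), against the medians of 0.04 and -0.01 over all genes. In clone 1, 6 of the 27 genes were at least 1.5-fold higher than the control in FPKM + 1, namely HMGCS1, MVD, IDI1, MSMO1, INSIG1 and STARD4, where 3.55% of all genes were. HMGCS1 and INSIG1 were also at least 2-fold higher there, where 1.06% of all genes were. In clone 2, HMGCS1 and MSMO1 were at least 1.5-fold higher, where 4.77% of all genes were, and none of the 27 was at least 2-fold higher, where 1.33% were. None was at least 2-fold higher in both clones either, as were 0.12% of all genes. HMGCS1 and MSMO1 were therefore the genes at least 1.5-fold higher in both clones, 2 of 27, where 0.574% of all genes and 0.269% of the 10050 protein-coding genes were. None of the 27 was at least 1.5-fold lower in either clone, where 2.71% of all genes were lower in clone 1, 3.56% in clone 2 and 0.6% in both. The ratios of both clones rest on 1 shared control library, so a low control value by itself raises both, and its part was not tested.

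**Figure D1:**
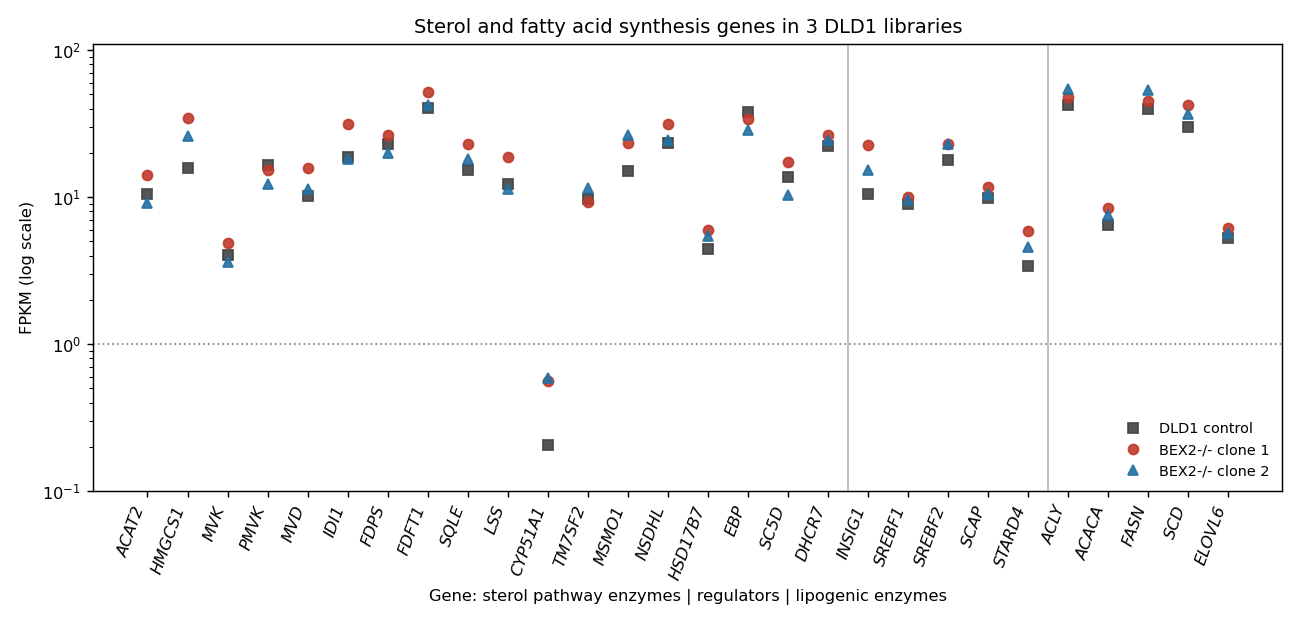
FPKM of each gene (log scale) in DLD1 control cells and in both BEX2-/- clones, with sterol pathway enzymes in the order of their reactions, then regulators, then lipogenic enzymes. The dotted line is at 1 FPKM, which CYP51A1 does not reach, and the other genes lie between 3.42 and 54.3 FPKM.

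The entry to the pathway held the largest difference by the mean log2 ratio of the clones. HMGCS1, the cytosolic HMG-CoA synthase (ENSG00000112972, GRCh38 chromosome 5, 43289395 to 43313512), was at 15.8 FPKM in the control, 34.6 in clone 1 and 25.9 in clone 2. They came from 3524, 5788 and 5810 reads, with 95% Poisson intervals of 15.3 to 16.3, 33.7 to 35.5 and 25.2 to 26.6 FPKM. These intervals and those below cover counting error only, not the spread among cultures, and are no test between libraries. The fold was 2.19 in clone 1 and 1.64 in clone 2, and the mean of the clones was 30.2 ± 6.15 FPKM (SD, n = 2). ACAT2, the thiolase that joins acetyl-CoA units one step earlier, was at 10.5 FPKM in the control, 14.1 in clone 1 and 9.06 in clone 2, so the clones lay on either side of the control. Of the exon bases of ACAT2, 52.3% are shared with genes on the opposite strand, among them SOD2 and TCP1, and the TruSeq RNA kit named in the labels does not mark strand, so its level is uncertain.

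The steps from mevalonate to farnesyl diphosphate differed between the clones. IDI1, the isopentenyl diphosphate isomerase, was at 18.6 FPKM in the control, 31.3 in clone 1 and 18.2 in clone 2, a fold of 1.68 in clone 1 and 0.977 in clone 2. MVD, the mevalonate diphosphate decarboxylase, was at 10.1, 15.7 and 11.3 FPKM, with folds of 1.55 and 1.12. Clone 1 alone stood apart for these genes, and clone 2 was close to the control. MVK, the mevalonate kinase, was at 4.05, 4.84 and 3.63 FPKM, and FDPS, the farnesyl diphosphate synthase, at 23.1, 26.3 and 20.1 FPKM, again highest in clone 1 and lowest in clone 2. PMVK, the phosphomevalonate kinase between MVK and MVD, went the other way, with 16.5 FPKM in the control, 15.3 in clone 1 and 12.2 in clone 2. Its intervals of 15.5 to 17.5 FPKM in the control and 14.2 to 16.5 in clone 1 overlapped. Genes on the opposite strand share 14.8% of the exon bases of IDI1 and 18.6% of those of FDPS. The values of IDI1 and MVK did not come out as whole reads. The levels of IDI1, FDPS and MVK are less certain for these reasons.

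The squalene steps were all highest in clone 1. FDFT1, which joins farnesyl units into squalene, was at 40.3 FPKM in the control, 51.5 in clone 1 and 42.2 in clone 2. SQLE, the squalene epoxidase, a rate-limiting oxygenase of the pathway, was at 15.3, 22.8 and 18.3 FPKM, with folds of 1.5 and 1.2. LSS, which closes the sterol ring as lanosterol, was at 12.2, 18.8 and 11.3 FPKM, with folds of 1.53 and 0.922. On the scale of FPKM + 1, SQLE and LSS were just below 1.5-fold in clone 1. For FDFT1 the counting interval was 39.6 to 41.1 FPKM in the control and 41.4 to 43 FPKM in clone 2.

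After lanosterol, 1 enzyme stood out in both clones. MSMO1, the methylsterol oxidase that begins the removal of methyl groups from the ring (ENSG00000052802, GRCh38 chromosome 4, 165327623 to 165343160), was at 15.1 FPKM in the control, 23.2 in clone 1 and 26.4 in clone 2. The reads were 2070, 2393 and 3645, and the folds 1.54 and 1.75, with a mean of the clones of 24.8 ± 2.24 FPKM (SD, n = 2). MSMO1 was thus the enzyme at least 1.5-fold higher in both clones whose level was higher in clone 2 than in clone 1. Its log2 ratio of 0.59 in clone 1 lay just above 1.5-fold, and it came to 0.55 when the libraries were scaled by the median ratio, which left HMGCS1 as the single gene past 1.5-fold in both clones.

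NSDHL, the dehydrogenase that acts after MSMO1, was at 23.4 FPKM in the control, 31.2 in clone 1 and 24.6 in clone 2. HSD17B7, a reductase of the same demethylation complex, was at 4.43, 6.02 and 5.45 FPKM. Both were lowest in the control and highest in clone 1. Reads of HSD17B7 can be shared with its 2 annotated pseudogenes, which summed to 2.24, 4.12 and 2.71 FPKM, so its values are uncertain. TM7SF2, a sterol reductase, was at 9.75, 9.22 and 11.6 FPKM and was the single gene of the 27 with its lowest value in clone 1 (26.7% of all genes).

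The last steps gave no common direction. EBP, the sterol isomerase, was at 38 FPKM in the control, 33.9 in clone 1 and 28.8 in clone 2, with folds of 0.893 and 0.758. Its mean in the clones was 31.4 ± 3.64 FPKM (SD, n = 2), and both clones lay below the control. SC5D, the sterol desaturase that follows, was at 13.6, 17.2 and 10.3 FPKM, higher than the control in clone 1 and lower in clone 2. DHCR7, the reductase that yields cholesterol, was at 22.3, 26.6 and 24.4 FPKM, lowest in the control.

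CYP51A1, the lanosterol demethylase, was the single gene that did not pass the filter on low values. It was at 0.207 FPKM in the control, 0.559 in clone 1 and 0.592 in clone 2, far below the enzymes before and after it in the pathway. In the annotation, 83.2% of its exon bases are shared with other genes, and its values did not come out as whole reads. How the authors assigned such reads is not given in the sources used here, so the level and its ratios are uncertain, and it is left out of the counts and medians.

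Over the 17 sterol pathway enzymes past the filter, 8 were higher than the control in both clones, 2 were lower in both, 6 were higher in clone 1 and lower in clone 2, and 1 was the reverse. Over all genes these shares were 32.4%, 27.7%, 23.9% and 16.1%. Their log2 ratios had medians of 0.37 in clone 1 and 0.06 in clone 2. Their summed level with CYP51A1 was 293 FPKM in the control, 383 in clone 1 and 304 in clone 2.

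**Figure D2:**
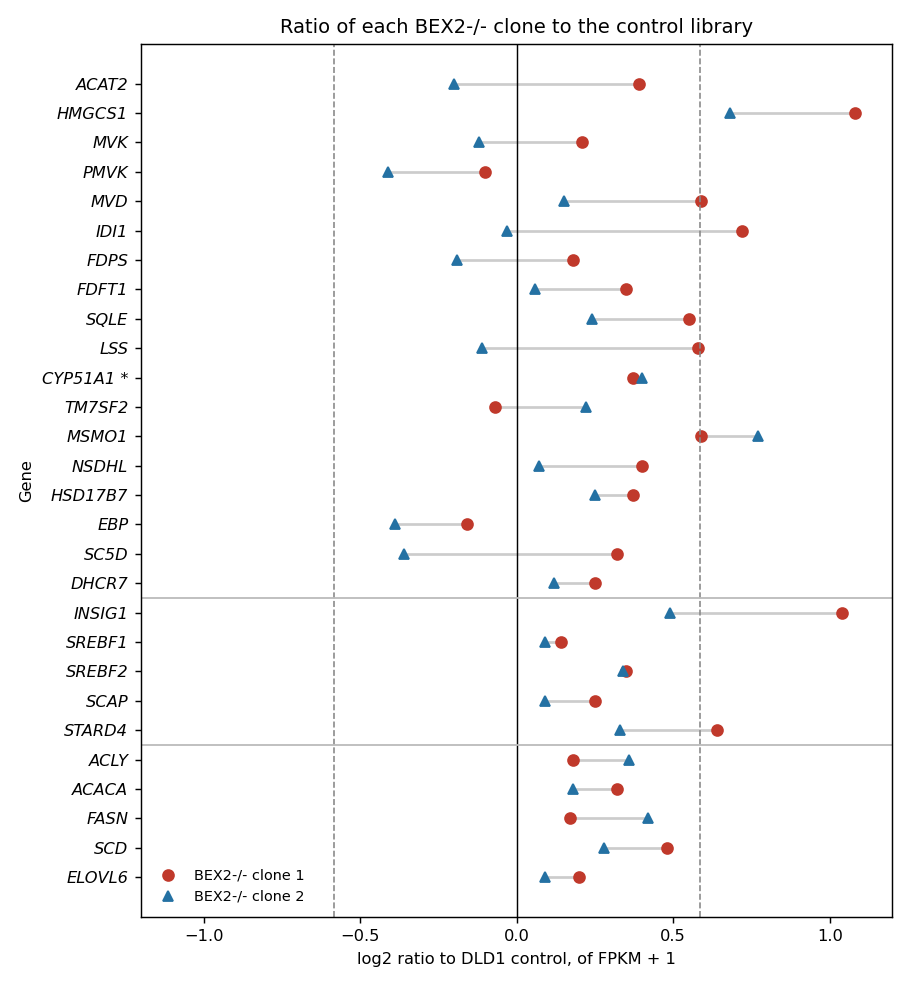
Log2 ratio to the control of FPKM + 1 for each gene, with clone 1 as circles and clone 2 as triangles joined by a line, and with dashed lines at 1.5-fold. HMGCS1 and MSMO1 lie past the dashed line in both clones, PMVK and EBP lie left of 0 in both, and the gene with an asterisk, CYP51A1, did not pass the filter on low values.

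All 5 regulators were above the control in both clones (32.4% of all genes), and all 5 were highest in clone 1 (40.7% of all genes). INSIG1, the endoplasmic reticulum protein that retains SCAP and is itself a target of the SREBP factors (ENSG00000186480, GRCh38 chromosome 7, 155297776 to 155310235), was at 10.5 FPKM in the control, 22.6 in clone 1 and 15.2 in clone 2. Its reads were 1818, 2934 and 2639, with folds of 2.15 and 1.44. The mean of the clones was 18.9 ± 5.26 FPKM (SD, n = 2). STARD4, which carries cholesterol through the cytosol and is likewise a known SREBP target, was at 3.42, 5.89 and 4.56 FPKM, with folds of 1.72 and 1.33. INSIG1 and STARD4 were at least 1.5-fold higher in FPKM + 1 in clone 1, and neither was in clone 2.

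SREBF2, which encodes the factor that acts mainly on sterol genes (ENSG00000198911, GRCh38 chromosome 22, 41833079 to 41907308), was at 17.9 FPKM in the control, 23.1 in clone 1 and 22.9 in clone 2. Its counting intervals were 17.4 to 18.3 FPKM in the control, 22.5 to 23.7 in clone 1 and 22.4 to 23.4 in clone 2. Its folds were 1.29 and 1.28, and its window printed above holds the sterol response element. SREBF1, whose product acts mainly on fatty acid genes, was at 8.93, 9.95 and 9.56 FPKM, with folds of 1.11 and 1.07. SCAP, the sterol-sensing escort, was at 9.82, 11.8 and 10.5 FPKM. Among the regulators the median (log2) was 0.35 in clone 1 and 0.33 in clone 2.

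All 5 lipogenic enzymes were above the control in both clones, as were 32.4% of all genes. SCD, the stearoyl-CoA desaturase, was at 30.1 FPKM in the control, 42.4 in clone 1 and 36.6 in clone 2, with folds of 1.41 and 1.22, and ranked highest of the 5 by mean ratio. FASN, the fatty acid synthase, was at 39.9, 45.1 and 53.5 FPKM, and ACLY, which makes cytosolic acetyl-CoA from citrate, at 42.1, 48 and 54.3 FPKM. FASN and ACLY were highest in clone 2, as MSMO1 and TM7SF2 were, which makes 4 of 27 genes (31.6% of all genes). ACACA, the acetyl-CoA carboxylase, was at 6.51, 8.38 and 7.53 FPKM, and ELOVL6, a fatty acid elongase, at 5.26, 6.17 and 5.67 FPKM. None of the 5 reached 1.5-fold in either clone, and their median was 0.20 in clone 1 and 0.28 in clone 2 (log2).

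The clones, which share a genotype label, differed from each other in these genes. The level was higher in clone 1 than in clone 2 for 23 of the 27 genes, where 57.8% of all genes were. Clone 2 over clone 1 gave a median of -0.28 on the log2 scale, against -0.05 over all genes. For the other gene lists described below, this median ran from -0.35, for fatty acid supply and for fatty acid oxidation, to 0.05, for sterol efflux. It was -0.33 for the proliferation list, so the shift was not particular to the 27 genes. At least 1.5-fold lower in clone 2 were IDI1, LSS and SC5D, 3 of 27, where 6.14% of all genes were, and none was at least 1.5-fold higher, where 6.23% were. The fold of clone 2 to clone 1 was 0.58 for IDI1, 0.6 for LSS and 0.599 for SC5D. Clone 1 was the highest library for 21 of the 27 genes (40.7% of all genes), clone 2 was the lowest for 8 (41%), and the control was the lowest for 18 (32.4%). With 1 library a clone, these differences have no replicate check.

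In the same libraries the 20 proliferation genes were below the control in both clones for 15 genes, where 27.7% of all genes were, and above it in both for none. The list had medians of -0.12 in clone 1 and -0.41 in clone 2 (log2). BIRC5, an inhibitor of apoptosis expressed in mitosis, was at 43.2 FPKM in the control, 35.5 in clone 1 and 21.7 in clone 2, and AURKB, a mitotic kinase, at 46.3, 38 and 30.2 FPKM. The proliferation list was thus lower in the clone in which the sterol genes were nearer the control, and its part in the sterol values was not tested.

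Companion lists of lipid genes outside the 28 were set beside them. No gene of these lists or of the proliferation list was at least 1.5-fold higher in both clones in FPKM + 1 (0.574% of all genes) or lower in both (0.6%). The list of SREBP processing and trafficking genes, 11 of 11 past the filter, had medians (log2) of 0.14 in clone 1 and 0.08 in clone 2, with 6 genes higher in both clones (32.4% of all genes), 5 higher in clone 1 and lower in clone 2 (23.9%) and none lower in both (27.7%). Within it SEC23A, a coat protein of the vesicles that leave the endoplasmic reticulum, was at 4.94 FPKM in the control, 8.38 in clone 1 and 6.01 in clone 2, and SEC24D, a cargo receptor of the same coat, at 2.85, 3.56 and 4.03 FPKM. The sterol efflux and LXR list, 6 of 8 past the filter, had medians of 0.10 and 0.09. Its most different genes were MYLIP, a ubiquitin ligase induced by LXR, at 3.56, 4.79 and 5 FPKM, and ABCA2, a lipid transporter, at 6.53, 7.74 and 4.08 FPKM.

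The isoprenoid branch, which uses farnesyl diphosphate for prenylation, dolichol and ubiquinone, had 12 of 12 genes past the filter and medians of 0.06 in clone 1 and -0.18 in clone 2. COQ2, the prenyl transferase of ubiquinone synthesis, was at 7.26 FPKM in the control, 6.22 in clone 1 and 3.75 in clone 2, and FNTB, a subunit of protein farnesyltransferase, at 2.28, 1.82 and 1.66 FPKM. For sterol storage and transport, 9 of 13 past the filter, the medians were 0.14 and 0.11. NPC1, which exports cholesterol from lysosomes, was at 1.96, 2.43 and 2.84 FPKM, and OSBPL2, an oxysterol-binding protein, at 4.15, 5.38 and 5.21 FPKM.

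Further genes of fatty acid supply, elongation and desaturation had 17 of 24 past the filter and medians of 0.30 in clone 1 and 0.04 in clone 2. ACSL1, a long-chain acyl-CoA synthetase, was at 3.92 FPKM in the control, 10.3 in clone 1 and 5.26 in clone 2, a fold of 2.63 and 1.34. MLXIPL, a glucose-responsive activator of lipogenic genes, was lower in both clones, at 5.66, 4.18 and 2.27 FPKM, while the lipogenic enzymes were higher in both.

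**Figure D3:**
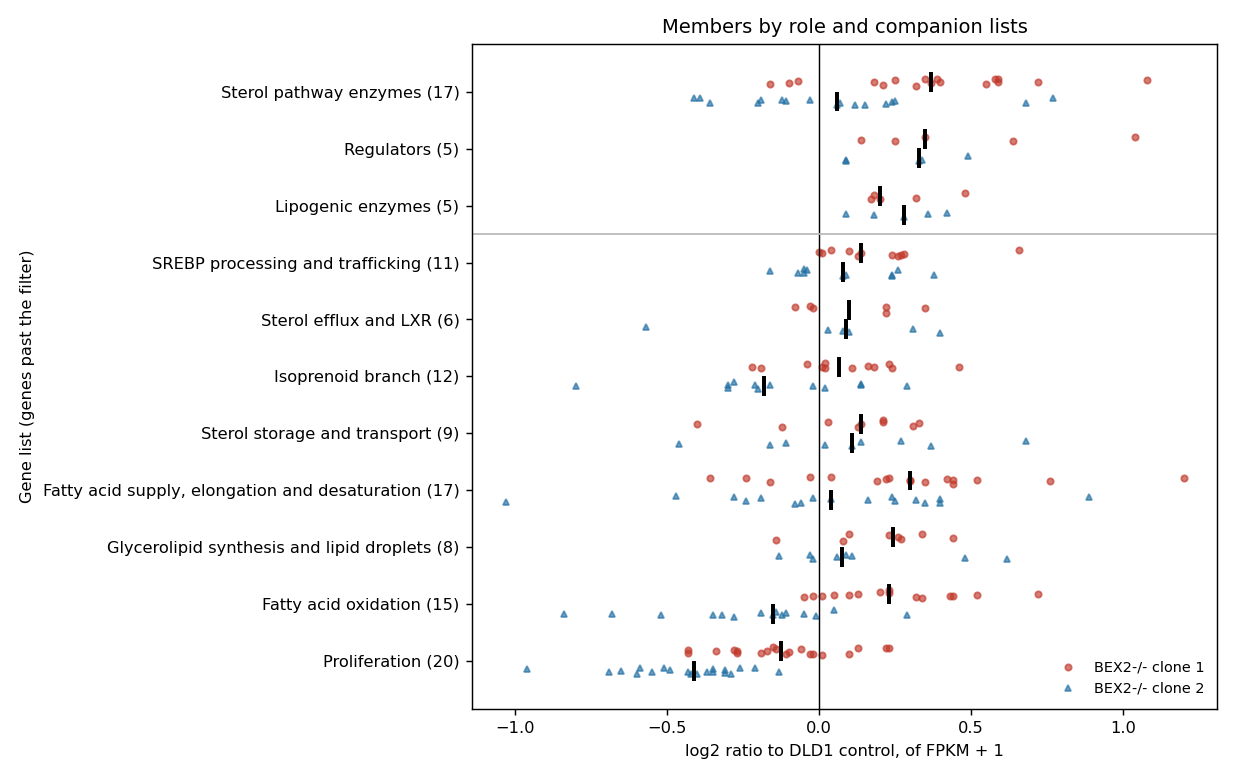
Log2 ratio to the control of FPKM + 1 for the genes of each role and of each companion list, with clone 1 as circles, clone 2 as triangles and the median of each set as a black bar. The number of genes past the filter is in brackets, the medians of the regulators are 0.35 and 0.33, and those of the proliferation list are -0.12 and -0.41.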

How the data were processed

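RNA-Seq libraries of wild type DLD1 cells (1 library) and BEX2-/- DLD1 cells (2 libraries) were analysed. The authors deposited FPKM values per gene. The submitters' processing notes name the build hg19, Trim Galore 0.3.7, STAR 2.5, Cufflinks 2.2.1 and DESeq 1.22.1, and the gene annotation is not given in the sources used here. Symbols came from a table that held 56558 of the 60504 identifiers, and positions and exon lengths from GENCODE release 29 on GRCh38, which held 56996. The deposited table gives no coordinates.

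Each clone was set against the control on the log2(FPKM + 1) scale, for genes whose control value and clone mean averaged at least 1 FPKM. Folds printed beside FPKM values are plain ratios. No test was run, since the control is 1 library and the members and lists were chosen with earlier results of these data known.

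Reads were recovered as FPKM multiplied by exon length and depth, and counted as whole within 0.02 reads. Of values of 1 to 1000 reads, 98.4% to 98.6% were whole for genes with 1 transcript and 88.6% to 88.9% for others, as were the values of 22 of the 28 members in all libraries (699 to 13515 reads). Poisson intervals cover counting error only. Of the members, 13 share exon bases with another annotated gene.

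Members, BEX2 and, in each companion list, the 2 genes with the largest mean ratio were named by rule, and 1 of these is not reported here. HMGCS1, INSIG1 and MSMO1 were added to the printed promoters after their values were seen. The calculation was repeated with 0.1 FPKM as pseudocount, with scaling by the median ratio or to TPM, without the filter, with a filter at 5 FPKM and without each clone. Ratios without a pseudocount and a background of protein-coding genes were chosen after seeing the data. The 2-fold calls were tried on simulated counts that held Poisson error alone and larger planted changes. That check does not cover the 1.5-fold calls or the spread among cultures. Software was Python 3.11.15 with matplotlib 3.10.9, numpy 2.4.6, scipy 1.17.1 and pandas 2.3.3.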

Additional observations from a re-analysis of the deposited data

How the results depend on the processing

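The median log2 ratio of the 27 genes, averaged over the clones, was 0.24 and lay between 0.22 and 0.30 under the alternative pseudocounts, scalings and filters, and between 0.12 and 0.35 when either clone was left out. The number of genes at least 1.5-fold higher in both clones was 2, but 1 with scaling by the median ratio, where MSMO1 dropped out, and from 2 to 6 with a single clone. The number at least 2-fold higher was 0 with both clones and from 0 to 2 with a single clone, where clone 1 alone gave HMGCS1 and INSIG1. The median of the regulators was 0.35, with 0.33 under scaling by the median ratio, 0.41 under TPM scaling, 0.26 with a mean of at least 5 FPKM, 0.37 without a pseudocount and 0.33 to 0.35 with a single clone. The median of the lipogenic enzymes was 0.27, with 0.34 under TPM scaling and 0.20 to 0.28 with a single clone. TPM scaling raised the median of all genes to 0.09 in clone 1 and 0.05 in clone 2. Clone 2 over clone 1 had a median of -0.28 (log2), which lay between -0.29 and -0.22 under every alternative that kept both clones. No paired analysis was possible because the control has 1 library and shares no replicate number with the clones in the labels. The counting error of 1 level was between 0.86% and 3.78% for the 22 genes with recovered reads. A ratio carries the error of both its levels, so calls next to the threshold can turn on it. In clone 1, MSMO1 and MVD were called at 0.59 and LSS was not at 0.58, where 1.5-fold is 0.58 (log2). The spread among control cultures is unknown.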

Other observations

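The genes of fatty acid oxidation mostly lay on either side of the control in the clones. Of 15 fatty acid oxidation genes, all past the filter, 11 were higher than the control in clone 1 and lower in clone 2. This counts any amount, for which the share of all genes was 23.9%, and none was the reverse. Some lay very near the control, such as ACAA2 at 0.01 in clone 1 and ACADS at -0.01 in clone 2 (log2). At least 1.5-fold, 1 gene was higher in clone 1 (3.55% of all genes) and 2 were lower in clone 2 (3.56%). The median log2 ratio of FPKM + 1 was 0.23 in clone 1 and -0.15 in clone 2. CPT1A, which admits long-chain fatty acids to mitochondria, was at 16.2 FPKM in the control, 27.3 in clone 1 and 8.62 in clone 2, and was chosen after its values were seen. HADH, a mitochondrial dehydrogenase of the cycle, was at 22.8, 22.5 and 13.8 FPKM.

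Of 10 genes of glycerolipid synthesis and lipid droplets, 8 passed the filter, with medians of 0.24 and 0.07. LPIN1, a phosphatidate phosphatase, was at 0.979 FPKM in the control, 1.51 in clone 1 and 1.76 in clone 2, with plain folds of 1.54 and 1.79 that stayed under 1.5 in FPKM + 1, and PLIN3, a coat protein of lipid droplets, at 18.4, 16.7 and 28.9 FPKM. Each of these values comes from 1 library, and no test was made.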
